A study of Rattus norvegicus with 11 samples.

Results

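The genes described encode regulators of G-protein signalling (RGS), measured in the medial prefrontal cortex (mPFC) of rats that had self-administered heroin and of yoked saline rats. Members were all non-control probes named in the array files as Rgs2, Rgs4, Rgs5, Rgs7, Rgs8, Rgs9, Rgs10, Rgs12, Rgs14 or Rgs19 (10 of 35581 different names), which gave 12 of the 41012 probes, since Rgs4 and Rgs19 had a pair of probes each. The heroin group was 6 male rats, 4 months old, that had licked a spout for infusions of 0.06 mg heroin (10 licks each) in daily 3 h sessions for 14 d. The saline group was 5 male rats of the same age that received yoked infusions of saline. Both groups then had 14 d of abstinence and a 90 min extinction session without infusions before the tissue was taken. No untrained or undisturbed group was among the arrays, and the methods give 12 arrays where 11 were analysed here.

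RGS proteins end the signal of G-protein-coupled receptors. They bind a G alpha subunit in its GTP-bound state and speed its hydrolysis of GTP, so that the subunit returns to rest sooner. Opioid receptors and dopamine receptors of the D2 class act through G proteins that many RGS members can switch off. RGS genes such as Rgs2 and Rgs4 are known as genes whose transcription changes with neuronal activity. The R4 subfamily (Rgs2, Rgs4, Rgs5 and Rgs8) holds small proteins with little beyond the RGS domain, the R7 subfamily (Rgs7 and Rgs9) pairs with the G-protein subunit Gnb5, the R12 subfamily (Rgs10, Rgs12 and Rgs14) acts mainly on Gi/o subunits, and Rgs19 belongs to the RZ subfamily.

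Each rat had 1 single-colour Agilent array, and values are signals relative to the array's own median probe ("array medians"). Precision is limited by the number of arrays. Of the tested probes, 25555 in all, the median one was 0.18 log2 units higher in heroin on this scale, and the changes are read against this value. Values under quantile normalization (median change 0.01) and after removal of the GC trend of the probes (median change 0.01) are therefore given beside the results. Scaling to the 75th percentile (median change -0.03) and centring on the median tested probe also took this shift away. Arrays numbered 2 to 6 shared a scan with the array of the other group with the same number. Heroin 1 had no such partner among the arrays analysed. All heroin arrays lay at position 4 of their slide and all saline arrays at position 3, so array position and group cannot be told apart. All 6 neuronal markers on the array (such as Snap25 and Slc17a7) were detected on every array, with summed signals of 404 to 606 in heroin and 365 to 488 in saline. In the same order of groups, astrocyte markers summed to 404 to 551 and 337 to 521, oligodendrocyte markers to 353 to 884 and 296 to 925, endothelial markers to 122 to 211 and 97.4 to 168, and blood markers to 6.94 to 20.2 and 7.53 to 20.3. Snap25 (172 to 349) and Tubb3 (94.0 to 146) had the highest signals of the neuronal markers and weigh most in their sum, and Slc17a7 (1.75 to 4.29) the lowest. After quantile normalization, Syt1 (-0.20) and Nefl (-0.19) were lower in heroin, and Snap25, Slc17a7, Camk2a and Tubb3 were higher (0.05 to 0.26). In bulk tissue, fewer cells of a type and less RNA per cell cannot be told apart.

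The stretches of RNA that the values rest on are shown for the members with the highest and lowest signals and for members that differ in base composition. Every probe had 60 bases, of which bases 31 to 60 follow, 5′ to 3′. Capitals in the Rgs7 probe mark ATTAAA, a variant of the polyadenylation signal.
Rgs2: tcctaggaccactcattgtgaaagtcaaat
Rgs4 brighter probe: caaataggtctgggaaaagtcattctgaat
Rgs4 dimmer probe: aaaatcaaatcaccttctaaactaagtccc
Rgs7: ttgttgttttatctttcATTAAAagatgca
Rgs8: ttcaaatggttcctagttatagcacataag
Rgs14: ggaggtgggccttgtcccttggcataagca
G and C made up 35% of the Rgs2 probe, 25% of the Rgs7 probe, 38.3% of the Rgs8 probe and 55% of the Rgs14 probe. The Rgs4 probes, at 43.3% for the brighter and 41.7% for the dimmer one, lay 2681 bases apart in build rn3.

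All 12 RGS probes were detected on all 11 arrays and none was saturated. The signals ranged from a mean of 9.86 times the lowest detected signal of an array for Rgs8 to 641 times for the brighter Rgs4 probe. Probes bind with different strength, so no order of transcripts is read from these signals. Among the tested probes, the brighter Rgs4 probe stood at percentile 97.4, Rgs2 at 92.6 and Rgs7 at 90.4. Rgs10, Rgs14 and the brighter Rgs19 probe stood between percentiles 77.7 and 77.9. The dimmer Rgs4 and Rgs19 probes and Rgs5 followed at 70.9, 68.7 and 64.9, and Rgs9, Rgs12 and Rgs8 at 56.5, 50.1 and 43.4.

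**Figure D1:**
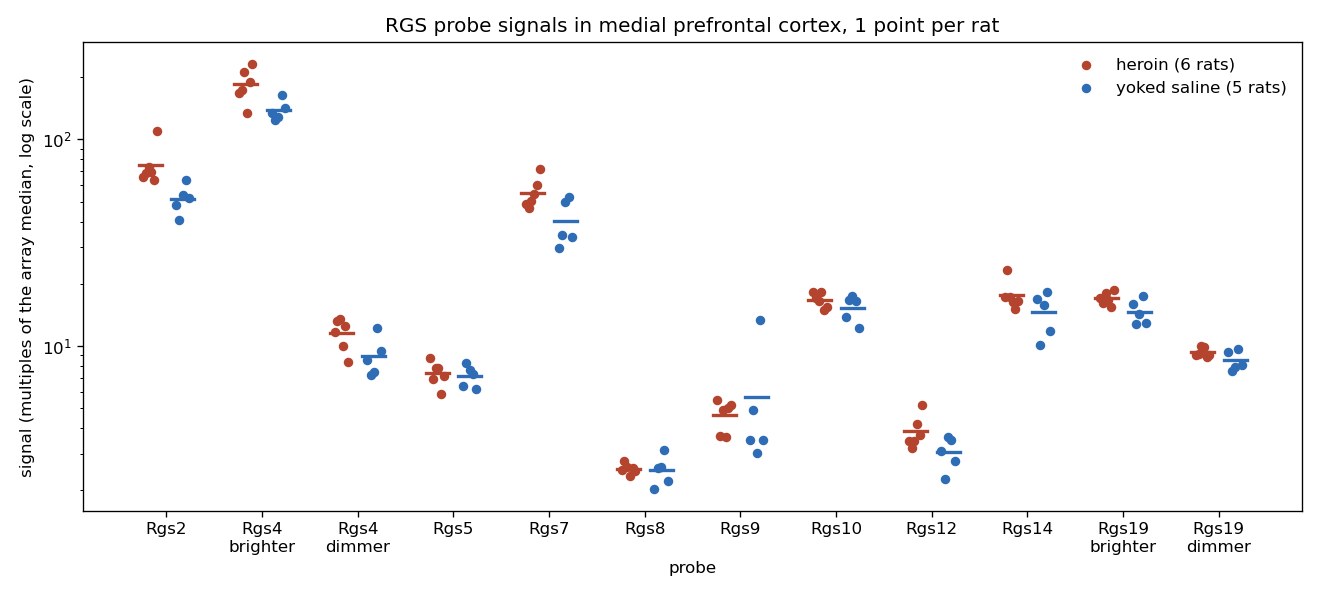
Signal of the 12 RGS probes in array medians (log axis) in 6 heroin and 5 yoked saline rats, 1 point per rat with a bar at the group mean. The groups overlap at every probe, heroin 6 stands above the other heroin rats for Rgs2 at 109.7 array medians, and saline 5 stands above the other saline rats for Rgs9 at 13.3.

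Across the family, 1 of 12 probes, Rgs2, was past the study's thresholds (p under 0.02 and at least 1.4-fold, applied here to limma's p), in the heroin-higher direction, and none was past them in the other direction. With the test the methods name, which does not assume equal variances, Rgs2 was again the 1 RGS probe past both (p 0.00863 by the methods' t-test), and 309 of all tested probes were, where limma gave 694. Of all tested probes, 1.79% were past both thresholds with heroin higher and 0.923% with heroin lower (458 and 236 probes). That split was 218 and 239 after quantile normalization, 33 and 746 with the 75th percentile as the scale, and 42 and 634 with each array centred on its median tested probe. At an unadjusted limma p under 0.05, 5 of 12 probes were higher in heroin (Rgs2, Rgs7, Rgs12 and both Rgs4 probes), where 15.7% of all tested probes were. No RGS probe had an adjusted p under 0.05, nor had any other probe (0% by limma with Benjamini-Hochberg adjustment). Without adjustment, 4729 tested probes had a limma p under 0.05, and 4134 by the methods' t-test. A further limma fit gave less weight to arrays that lay farther from their group, as judged from these same data. In it, 7863 of all probes and 6 RGS probes (Rgs2, both Rgs4 probes, Rgs7, Rgs14 and the brighter Rgs19 probe) had an adjusted p under 0.05. The median change of the RGS probes was 0.26, beside 0.18 for all tested probes. After quantile normalization the medians were both 0.01, 6 RGS probes were higher and 6 lower, and none was past both thresholds, where 0.853% of tested probes were past them with heroin higher.

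**Figure D2:**
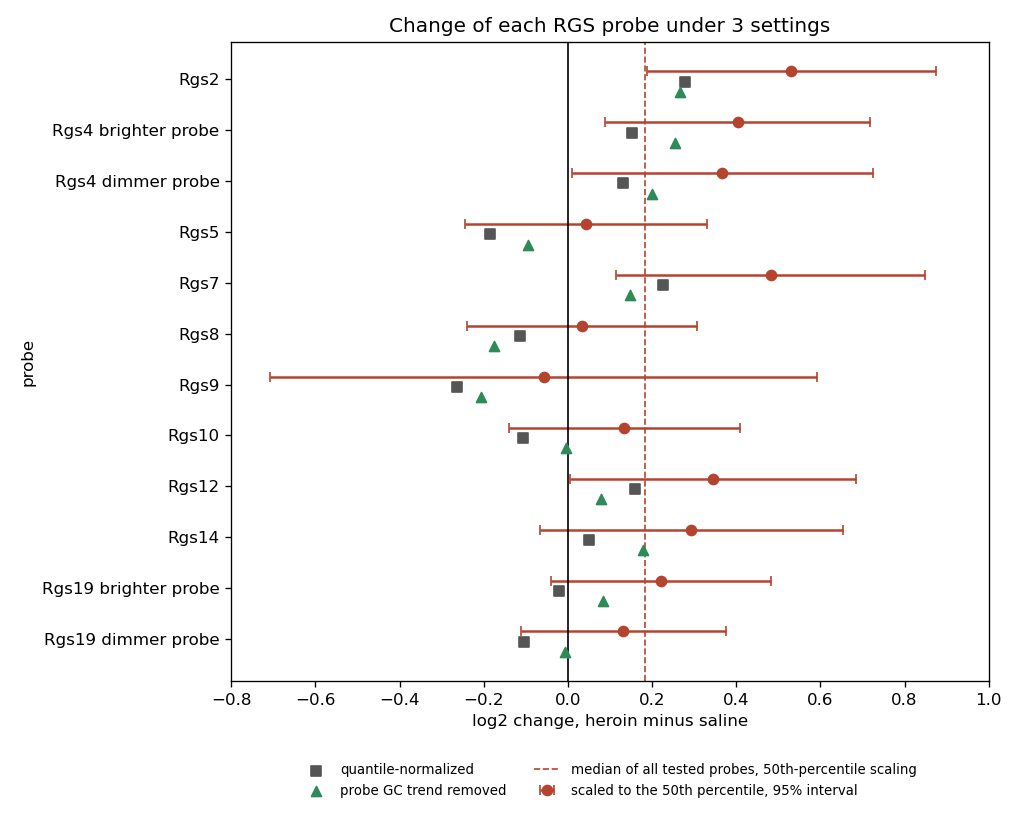
Log2 change (heroin minus saline) of each RGS probe on the 50th-percentile scale with its 95% interval (circles), after quantile normalization (squares) and after removal of the probe GC trend (triangles). Rgs2 lies highest on the 50th-percentile scale at 0.53, the dashed line marks the median tested probe at 0.18, and all quantile-normalized changes lie to the left of the circles.

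In the R4 subfamily, Rgs2 was the member past the study's thresholds. Rgs2 acts on Gq subunits, and also on Gi subunits, and is an early-response gene in neurons. Its probe lies on chromosome 13 (rn3 chr13:57905038-57905097). The signal was 65.6, 69.0, 73.5, 69.2, 63.5 and 109.7 array medians in heroin rats 1 to 6. It was 47.8, 40.7, 53.7, 63.7 and 51.7 array medians in saline rats 2 to 6. The lowest heroin rat (63.5) and the highest saline rat (63.7) overlapped, and every other heroin rat was above every saline rat. The change was 0.53 on the log2 scale (SE 0.16, 95% interval 0.19 to 0.87, 1.45-fold), with a limma p of 0.00497, an adjusted p of 0.263 and an exact two-sided permutation p of 0.00433 (the smallest that 462 divisions of the rats allow is 0.00216). The study placed Rgs2 on the list of genes that it chose on these arrays, so this test is not independent evidence. After quantile normalization the change was 0.28 (limma p 0.0479, adjusted p 0.642), and after removal of the GC trend 0.27 (limma p 0.0866). With the scan as a block it was 0.56 (limma p 0.00862). Heroin 1, with no partner in its scan among the arrays analysed, adds nothing to that fit. Leaving heroin 1 out with no block also gave 0.56 (limma p 0.00589). Without heroin 6, the highest rat, the change was 0.42 and below 1.4-fold, and without saline 3, the lowest rat, it was 0.45 and below 1.4-fold.

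The high Rgs2 value of heroin 6 came with a low array median. Before scaling, its Rgs2 signal was 4684 intensity units, within the 4187 to 5514 units of the other heroin rats. The median probe of its array was at 42.7 units, the lowest of the 11 arrays, where the others ranged from 58.0 to 83.2. After quantile normalization, heroin 6 was still the highest for Rgs2, at 92.5, where the other heroin rats ranged from 59.2 to 67.0. In array medians, heroin 6 also had the highest sums of all rats for microglial (96.8), pericyte and smooth muscle (98.1) and endothelial markers (211). Its neuronal sum (404) was the lowest of the heroin rats. Its astrocyte, oligodendrocyte and blood sums lay within the range of the other rats. The parts of the array median and of these markers in the Rgs2 value of heroin 6 were not tested. Within scans, the heroin rat had more Rgs2 signal than the saline rat in 4 of 5, by 0.53, 0.85, 0.36 and 1.08 log2 units in scans 2, 3, 4 and 6. In scan 5 the difference was -0.0058. The median tested probe differed by 0.27, 0.28, 0.12, -0.10 and 0.22 in scans 2 to 6. Rgs2 was above it in all 5 scans, and Rgs5 was above it in 0 of 5. The share of all tested probes above it in every scan was not counted, so the Rgs2 count has no background to be read against.

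**Figure D3:**
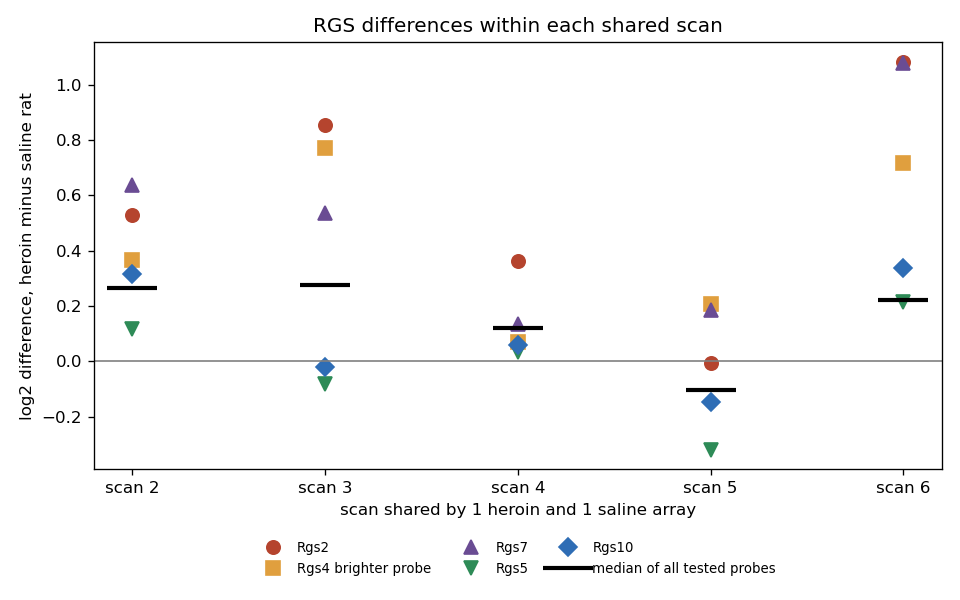
Log2 difference between the heroin and the saline rat of each of the 5 shared scans for Rgs2, the brighter Rgs4 probe, Rgs7, Rgs5 and Rgs10, with a black bar at the median of all tested probes. Rgs2 lies above the bar in every scan, Rgs5 lies below it in every scan, and scan 5 has the lowest median, -0.10. The shares of all tested probes that do so were not counted.

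Rgs4 was next to Rgs2 in size within the R4 subfamily. Rgs4 acts on Gi/o and Gq subunits and is abundant in cerebral cortex. Its brighter probe (rn3 chr13:85548287-85548346) gave 168.7, 173.6, 211.4, 134.7, 189.2 and 232.8 array medians in heroin rats 1 to 6. It gave 134.7, 124.0, 128.5, 163.8 and 141.6 in saline rats 2 to 6. The groups overlapped through heroin 4, which lay below saline 5 and 6, and the other heroin rats were above every saline rat. The change was 0.40 (SE 0.15, 1.32-fold), with a limma p of 0.0157, an adjusted p of 0.263 and the fold below 1.4. The dimmer probe (rn3 chr13:85550968-85551027) ranged from 8.33 to 13.5 array medians in heroin and from 7.24 to 12.2 in saline, with a change of 0.37 (SE 0.17, limma p 0.0452). Heroin 6 was the highest of the heroin rats at the brighter probe and the lowest at the dimmer one. Over the 11 rats the quantile-normalized log2 signals of the 2 probes correlated with Pearson's r 0.50 (permutation p 0.117) and Spearman's rho 0.56 (permutation p 0.0763), and r was 0.17 without the 2 rats farthest from the median. With the 2 pairs of probes of this family counted, the adjusted p values were 0.117 and 0.0763. After quantile normalization the changes were 0.15 and 0.13 (limma p 0.311 and 0.429). Within scans the brighter probe was higher in the heroin rat in 5 of 5 and the dimmer one in 4 of 5.

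Rgs5, the neighbour of Rgs4 on chromosome 13, had a change near 0. Rgs5 is best known as a gene of pericytes, the cells that wrap brain capillaries. Its probe (rn3 chr13:85494730-85496364, a span longer than the probe) lies 51.9 kb from the brighter Rgs4 probe. The signal was 8.73, 6.91, 7.83, 7.84, 5.82 and 7.17 array medians in heroin rats 1 to 6, and 6.37, 8.29, 7.66, 7.27 and 6.18 in saline rats 2 to 6. The change was 0.04, with a 95% interval of -0.24 to 0.33 (limma p 0.752). After quantile normalization it was -0.18 (limma p 0.112). The log2 ratio of Rgs4 (brighter probe) to Rgs5 within an array does not depend on the factor by which the array was divided. It averaged 4.64 ± 0.38 in heroin (SD, n = 6) and 4.28 ± 0.28 in saline (SD, n = 5), a difference of 0.36 with an exact two-sided permutation p of 0.115. The 6 pericyte and smooth muscle markers on the array summed to 55.2 to 98.1 array medians in heroin and 52.5 to 76.2 in saline. The sum of 98.1 was that of heroin 6, and the next heroin rat was at 82.7. The part of these markers in the Rgs5 values was not tested.

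Rgs8, a Gi/o-directed member best known from cerebellar Purkinje cells, had the lowest signals of the family. They ranged from 2.34 to 2.76 array medians in heroin and from 2.02 to 3.11 in saline. The saline range enclosed the heroin range. The change was 0.03, with a 95% interval of -0.24 to 0.31 (limma p 0.796).

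For promoter sequence, the 250 bases upstream of a single start per gene were read from RefSeq (assembly GRCr8) for the 10 genes. For Rgs8, Rgs10, Rgs12 and Rgs19 the window lay inside the span of the gene, and windows at other starts were not read. Rgs2 and Rgs4 are shown as the R4 genes with the highest changes. The windows are chr13:58352667-58352916 for Rgs2 and chr13:84475885-84476134 for Rgs4, both on the minus strand. Capitals mark TGACG or CGTCA, the short form of the cAMP response element (CRE) on either strand, and TATAAA, the TATA box.
Rgs2 promoter: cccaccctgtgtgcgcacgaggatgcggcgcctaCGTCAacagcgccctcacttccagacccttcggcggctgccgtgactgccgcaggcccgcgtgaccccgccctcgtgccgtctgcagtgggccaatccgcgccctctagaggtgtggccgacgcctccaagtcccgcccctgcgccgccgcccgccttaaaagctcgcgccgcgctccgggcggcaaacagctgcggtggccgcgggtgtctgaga
Rgs4 promoter: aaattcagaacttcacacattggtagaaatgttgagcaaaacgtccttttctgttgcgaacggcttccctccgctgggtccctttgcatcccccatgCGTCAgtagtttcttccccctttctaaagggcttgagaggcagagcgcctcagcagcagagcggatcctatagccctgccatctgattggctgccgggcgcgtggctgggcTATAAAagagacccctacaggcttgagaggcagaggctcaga
The short CRE form was in 2 of the 10 members, Rgs2 and Rgs4, and in 19% of all 27457 promoters. TATAAA was in Rgs4 alone of the members and in 8.38% of all promoters. CCAAT, on either strand, was in Rgs2, Rgs4, Rgs8 and Rgs9 and in 34.3% of all promoters. The full CRE (TGACG followed by TCA, which holds the short form), the serum response element, the Egr site (GCGG followed by GGGCG, either strand) and the MEF2 site were in none of these 10 windows, and in 1.7%, 1.5%, 2.49% and 0.572% of all promoters. A match describes letters, and no binding was measured.

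In the R7 subfamily, Rgs7 was just under the study's fold threshold, and its p was under the study's threshold by limma but not by the methods' t-test (p 0.0393). Rgs7 is a neuronal protein that acts on Go and works as a complex with Gnb5. Its probe (rn3 chr13:90921320-90921379) had the lowest share of G and C of the family. The signal was 48.7, 46.5, 50.1, 54.3, 59.9 and 71.5 array medians in heroin rats 1 to 6. It was 29.9, 34.5, 49.5, 52.7 and 33.8 array medians in saline rats 2 to 6. Saline 4 and 5 lay among the heroin rats, and the other 3 saline rats lay below all of them. The change was 0.48 (SE 0.17, 95% interval 0.11 to 0.85), or 1.397-fold, with a limma p of 0.0136 and an adjusted p of 0.263. With the scan as a block, a fit to which heroin 1 adds nothing, it was 0.51 (limma p 0.0128) and past both thresholds. Without heroin 1 and with no block it was also 0.51 (limma p 0.0151) and past both. Within scans the heroin rat was higher in 5 of 5, by 0.64, 0.54, 0.13, 0.18 and 1.08 log2 units. Rgs7, Rgs12 and the brighter Rgs4 probe were the 3 of 12 RGS probes with heroin higher in every shared scan, where 8.81% of the 25256 probes measured in all of these scans were. After quantile normalization the Rgs7 change was 0.23 (limma p 0.105), and after removal of the GC trend 0.15 (limma p 0.132).

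**Figure D4:**
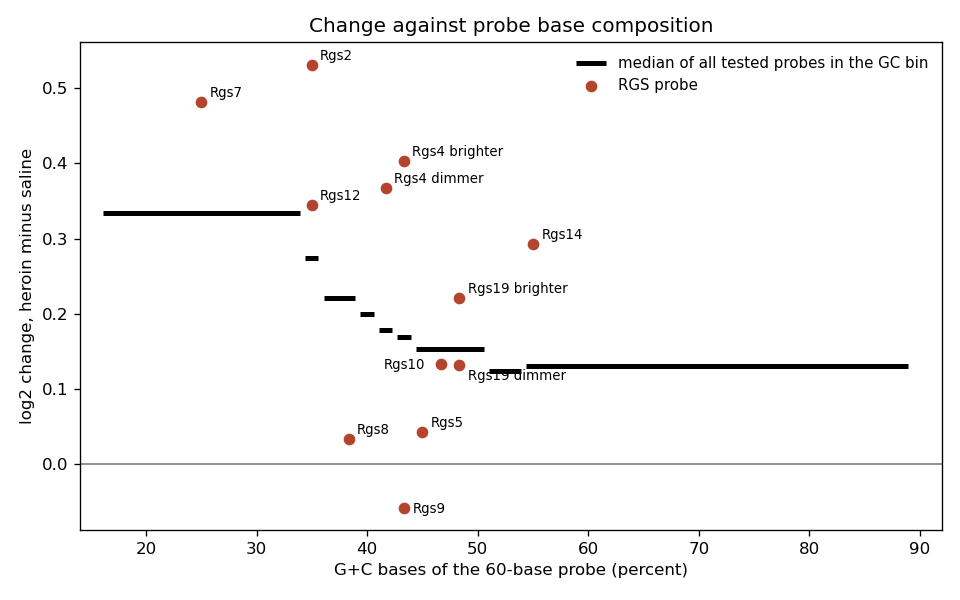
Log2 change (heroin minus saline) of the 12 RGS probes against the percentage of G and C in the probe, with black bars at the median change of all tested probes in each of 9 bins of that percentage. The bars fall from 0.33 at or below 33.3% to 0.13 at or above 55%, with Rgs7 at 25% and Rgs2 and Rgs12 at 35% over the higher bars.

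Base composition moved with the changes of all probes. The median change was 0.33 over the 821 tested probes with at most 33.3% G and C, 0.27 over the 3532 at 35%, 0.15 over the 7226 at 45 to 50% and 0.13 over the 3212 at 55% or more. Rgs7 belongs to the first of these groups, and Rgs2 and Rgs12 to the second. With the trend removed, no RGS probe had a limma p under 0.05. The brighter Rgs4 probe was then at 0.25 (limma p 0.103), close to Rgs2 at 0.27. The part of base composition in these values was otherwise not tested.

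Rgs9 had 1 rat far above the others, in the saline group. Rgs9 is best known as the RGS protein of striatal neurons, where it limits dopamine and opioid receptor signals. Its probe (rn3 chr10:98612855-98612914) gave 5.48, 3.64, 4.86, 3.60, 5.01 and 5.19 array medians in heroin rats 1 to 6. It gave 3.50, 4.91, 3.03, 13.3 and 3.51 in saline rats 2 to 6. Saline 5 was 3.12 times the median of the other rats, and the other saline rats, from 3.03 to 4.91, overlapped the heroin range. The change was -0.06 with a 95% interval of -0.71 to 0.59 (limma p 0.852), and without saline 5 it was 0.31 (limma p 0.0907). In saline 5, Adora2a, a receptor of striatal neurons, was at 5.92 array medians, where the other 10 rats ranged from 1.75 to 3.00. Tac1 and Drd2 were also highest in saline 5, at 24.0 against at most 21.9 and at 0.543 against at most 0.487. Drd1a (0.825), Ppp1r1b (2.05) and Pde10a (9.85) of the same rat lay within the range of the others. Summed over these 6 striatal markers, saline 5 was at 43.2 array medians, the other saline rats were between 24.2 and 32.2, and the heroin rats were between 28.7 and 36.6. All 6 were detected on at least 1 array and 5 on every array, and their part in the Rgs9 value was not tested.

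**Figure D5:**
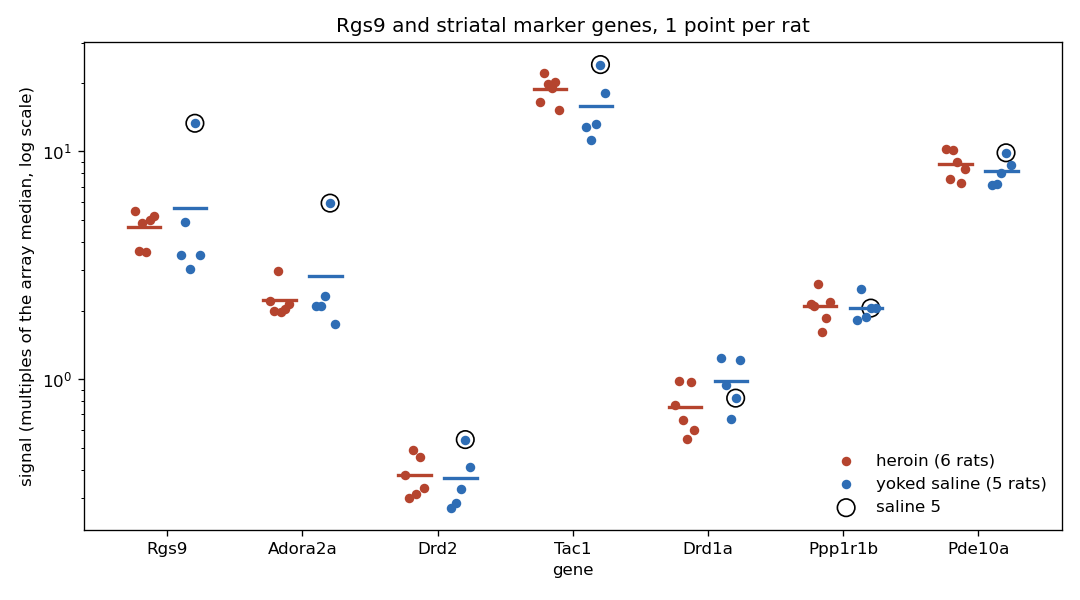
Signal of Rgs9 and of 6 striatal marker genes in array medians (log axis), 1 point per rat with a bar at the group mean and a ring around saline 5. Saline 5 is the highest of all rats for Rgs9 (13.3), Adora2a (5.92), Drd2 and Tac1, and lies among the others for Drd1a, Ppp1r1b and Pde10a.

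In the R12 subfamily, no member was past the study's thresholds. Rgs12 is a large protein with a PDZ domain and others besides the RGS domain. Its probe (rn3 chr14:81366556-81366615) gave 3.47, 3.21, 3.47, 4.18, 3.71 and 5.17 array medians in heroin rats 1 to 6, and 3.09, 2.27, 3.63, 3.51 and 2.75 in saline rats 2 to 6. Heroin 4, 5 and 6 were above every saline rat, and the other heroin rats lay between saline 2 and saline 5. The change was 0.34 (SE 0.16, limma p 0.0470, adjusted p 0.269), 0.16 after quantile normalization (limma p 0.295) and 0.08 with the GC trend removed (limma p 0.592).

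Rgs14 also binds Ras-family proteins and is known from hippocampal area CA2. Its probe (rn3 chr17:15293763-15293822) gave 17.1, 23.2, 17.3, 16.3, 15.04 and 16.5 array medians in heroin rats 1 to 6, and 16.9, 10.1, 15.7, 18.2 and 11.9 in saline rats 2 to 6. Heroin 2 was the highest of all rats, and saline 3 and 6 were below every heroin rat. The change was 0.29 (SE 0.17, limma p 0.103), and 0.05 after quantile normalization (limma p 0.748).

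Rgs10 is a short RGS protein known from microglia as well as neurons. Its probe (rn3 chr1:187784730-187784789) ranged from 14.8 to 18.2 array medians in heroin (median 16.8) and from 12.2 to 17.4 in saline (median 16.4). The groups overlapped over most of their ranges, and the change was 0.13 with a 95% interval of -0.14 to 0.41 (limma p 0.314). The 6 microglial markers on the array summed to 38.8 to 96.8 array medians in heroin and 42.5 to 62.6 in saline. The sum of 96.8 was that of heroin 6, and the next heroin rat was at 70.5. The part of these markers in the Rgs10 values was not tested.

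Rgs19, of the RZ subfamily, acts on Gi/o and Gz subunits, and its name GAIP comes from its binding to a Gi subunit. The brighter probe (rn3 chr3:170746180-170746239) ranged from 15.4 to 18.7 array medians in heroin and from 12.8 to 17.5 in saline. The dimmer one, 232 bases away, ranged from 8.80 to 9.97 in heroin and from 7.58 to 9.67 in saline. Saline 3, 4 and 6 were below every heroin rat at both probes. The changes were 0.22 (limma p 0.0926) and 0.13 (limma p 0.266), and -0.02 and -0.10 after quantile normalization. The 2 probes correlated over the 11 rats with r 0.84 (permutation p 0.00478, adjusted 0.00956) and rho 0.65 (permutation p 0.0371, adjusted 0.0742), and r was 0.73 without the 2 rats farthest from the median.

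The sign of a change depended on the scaling for 5 of the 12 probes. Rgs5, Rgs8, Rgs10 and both Rgs19 probes were higher in heroin on the 50th-percentile scale and lower after quantile normalization. Rgs2, Rgs4, Rgs7, Rgs12 and Rgs14 were higher under both, and Rgs9 was lower under both.

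Genes that work with the RGS family were read from a list of 63 names, of which 51 were on the array and 45 were tested. Among them, 1 was past the study's thresholds with heroin higher and none with heroin lower, beside 1.79% and 0.923% of all tested probes. None of the listed genes was past both with the methods' t-test, the 75th percentile as the scale or normexp background correction, nor without saline 2 or without saline 3. At an unadjusted limma p under 0.05, 7 were higher and 0 lower, beside 15.7% of tested probes higher. The median change of the 45 genes was 0.19, and 0.01 after quantile normalization. The gene past both thresholds was Gnai1, which encodes an inhibitory G alpha subunit, the kind of protein RGS members act on. Its signal was 3.04, 3.09, 2.66, 3.47, 3.06 and 3.04 array medians in heroin rats 1 to 6, and 1.48, 1.44, 2.04, 3.72 and 1.86 in saline rats 2 to 6. Saline 5 was the highest of all 11 rats, and the other 4 saline rats were below every heroin rat. The change was 0.63 (SE 0.21, limma p 0.00804, adjusted p 0.263, exact permutation p 0.0325), and 0.51 after quantile normalization (limma p 0.0160), which was also past both thresholds. With the GC trend removed it was 0.36 (limma p 0.0286), below 1.4-fold.

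The other 6 genes at that level were Gnb5, Gnai3, Gnb1, Gnb2, Ric8a and Gprk6, named here after their values were seen. Gnb5, the partner of Rgs7 and Rgs9, was between 138 and 181 array medians in heroin and between 105 and 118 in 4 saline rats, with the spot of saline 5 left out as marked by the scanner software. The change was 0.44 (SE 0.13, limma p 0.00360, adjusted p 0.263). The fold was below 1.4, and after quantile normalization the change was 0.14 (limma p 0.246). The second Gnb5 probe changed by 0.33 (SE 0.14, limma p 0.0355). Gnb2, a G beta subunit, was between 46.9 and 65.3 array medians in heroin and between 38.7 and 45.2 in saline. Its change was 0.34 (limma p 0.0141), and 0.09 after quantile normalization (limma p 0.492). Gnai3, Gnb1, Ric8a and Gprk6 had changes of 0.47, 0.29, 0.39 and 0.26, and their limma p after quantile normalization ranged from 0.160 to 0.889. Of the other RGS genes listed, 4 of 7 on the array were tested (Rgs3, Rgs6, Rgs11 and Rgs17), none had a limma p under 0.05, and their median change was 0.08.

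The genes whose pattern over the 11 rats was most like Rgs2 and Rgs4 were ranked by Pearson's r of quantile-normalized log2 signals after each group's mean was subtracted. For Rgs2, among 7820 named probes, they were Ptgfrn (0.94), Unc50 (0.93), Fat3 (0.93), Slc39a6 (0.92) and Ppid (0.92). For Rgs4, among 7819 named probes, they included Crhbp (0.96), Ddx26 (0.93), Psma6 (0.92) and Psmd8 (0.91). The quantile-normalized changes of these 9 genes were between 0.01 and 0.19. They were picked as the highest of many, so the r values describe the ranking and carry no test.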

How the data were processed

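RNA of the mPFC was hybridised to 11 single-colour Agilent arrays, 1 per rat, with groups and replicate numbers from the sample labels. The authors deposited Feature Extraction (version 9.5.1.1) output with a background-subtracted signal intensity per spot and no scaling between arrays, and a table of relative values, a ratio per probe around 1 made by the authors in GeneSpring. Labelling began at the poly(A) end of the RNA. Spots that the software marked (non-uniform, outlier) were dropped, intensities were floored at 5 and scaled to the 50th percentile of the non-control probes of the array, and log2 values were used. Spots of a probe were averaged. Tested probes (25555) were detected on all 11 arrays (at least 0.5 of the spots well above background) with at least 2 usable arrays in each group. Arrays had median signals of 42.7 to 83.2 units and 28185 to 33835 detected probes.

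Groups were compared with limma 3.58.1 in R 4.3.3 (two-sided, Benjamini-Hochberg over all tested probes) and by the methods' thresholds of p under 0.02 and 1.4-fold (applied to limma's p, with the methods' own t-test as an alternative), and single values by an exact permutation test over 462 divisions. The p-values measure the spread between these rats, whose litters and runs the labels do not give. The members, the list of G-protein genes and the marker lists were chosen with earlier results of these data known. The rule for named genes covered all members, the listed G-protein genes past both thresholds, and the 5 genes most correlated with Rgs2 and with Rgs4, of which 1 for Rgs4 is not reported here, nor is 1 striatal marker. Further G-protein genes (those at a limma p under 0.05 and the other tested RGS genes) and single markers were named after their values were seen. A gene's main probe was its brightest. Probe positions are in rn3 as in the files. Symbols of 10 of 10 members and accessions of 11 of 12 probes matched RefSeq (GRCr8), whose positions are not comparable with rn3.

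Alternatives changed the scale (75th percentile, quantile), background (normexp, offset 50), order of the floor, source (the authors' relative values), marked spots, detection filter, test (the methods' t-test, array weights, a trended robust eBayes), block (replicate number, which is also the scan), probes of a gene and the rats included. Centring on the median tested probe and removing the median deviation in 9 bins of probe GC content were chosen after seeing the data. The fits were tested on simulated data.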

Additional observations from a re-analysis of the deposited data

Results flagged for a closer look

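Of 24 groups of signals (12 probes in heroin and in saline), 2 held a rat whose gap to its nearest neighbour was large for the range of the group, and chance gives such a gap in about 1 of 20 groups. For Rgs2, heroin 6 was at 109.7 array medians, and the next heroin rat was at 73.5. For Rgs14, heroin 2 was at 23.2 array medians, and the next heroin rat was at 17.3.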

How the results depend on the processing

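The Rgs2 change kept its sign under every alternative and was no longer past both thresholds with the 75th percentile as the scale (0.31), quantile normalization (0.28), centring on the median tested probe (0.34) and removal of the GC trend (0.27). With 1 rat left out it ranged from 0.42 (without heroin 6) to 0.61 (without saline 5), and it stayed past both thresholds in 9 of 11 such fits. The number of RGS probes past both thresholds, 1, became 0 under those 4 settings and 2 with array weights or with the replicate number, which is also the scan, as a block. It ranged from 0 to 2 with 1 rat left out. With array weights 6 RGS probes had an adjusted p under 0.05, and none had with 1 rat left out (0 to 0).

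Over all probes, 694 were past both thresholds, and this became 457 with quantile normalization, 126 with normexp, 1560 with no detection filter, 1066 with detection in 1 group, 309 with the methods' t-test and 2378 with array weights. It ranged from 342 (without saline 2) to 2352 (without saline 5), and was 394 without saline 3. The number with an adjusted p under 0.05 was 7863 with array weights and ranged from 0 to 1 with 1 rat left out. Of the listed G-protein genes, 1 was past both thresholds, and this became 0 with the 75th percentile, normexp or the methods' t-test and 4 with array weights, with a range of 0 (without saline 2 or without saline 3) to 3 (without saline 5).

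Changes near 0 turned sign. With the 75th percentile they were -0.17 (Rgs5), -0.18 (Rgs8), -0.084 (Rgs10) and -0.086 (dimmer Rgs19 probe). With quantile normalization they were -0.18, -0.11 and -0.11 for Rgs5, Rgs8 and Rgs10, and -0.020 and -0.10 for the brighter and dimmer Rgs19 probes. With centring they were -0.15, -0.16, -0.057 and -0.059, and with the GC trend removed -0.095, -0.18, -0.0045 and -0.0064, for Rgs5, Rgs8, Rgs10 and the dimmer Rgs19 probe. Rgs9 became 0.13 with array weights. With 1 rat left out, Rgs5 ranged from -0.0073 to 0.11, Rgs8 from -0.040 to 0.12 and Rgs9 from -0.22 to 0.31. The causes were not tested.

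With the replicate number as a block, Rgs2 was at 0.56 and Rgs7 at 0.51, Rgs5 turned to -0.0073, and no other RGS probe crossed the thresholds. These were also the changes without heroin 1, which had no partner among the arrays analysed and adds nothing to that fit. Same-numbered rats correlated with 0.38, -0.13, 0.35, 0.018 and -0.24 in their deviations from the group means (scans 2 to 6). These correlations cannot tell whether the numbers are the yoked pairs, since yoking matched infusions and the number is also the scan. The main fit and the permutation tests took no account of the yoking of saline to heroin rats. All RGS probes were above background on every array, the dimmest at 9.86 times the lowest detected signal.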
